A study of Mus musculus with 16 samples.

Results

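The 10 genes described here, Lyz1, Ang4, Mmp7, Itln1, Defa17, Defa24, Reg3a, Reg3b, Reg3g and Nupr1, are products of Paneth cells or antimicrobial and stress genes of the gut epithelium. They were taken by gene symbol from the 48440 genes listed for each segment, and all 10 were found in all 3 segments. RNA-Seq was done on GFP+ intestinal stem cells (ISCs) of 7 female Lgr5-EGFP mice, which make green fluorescent protein from the stem cell gene Lgr5. All the mice, sham-treated ones included, had eaten a 60% high-fat diet for 16 weeks before surgery, and the study's methods give 8 to 16 weeks as the age of its animals in general. Vertical sleeve gastrectomy (VSG), which removes most of the stomach along its greater curvature, was compared with sham surgery, in which the stomach was pressed with forceps. The mice were fasted overnight 4 weeks after surgery, given a liquid meal 15 minutes before death, and 6 cm of each segment was taken, with immune, endothelial, apoptotic and dead cells sorted out. From 6 of the mice, 4 VSG and 2 sham, both a duodenal and a jejunal library were used, and ileal libraries came from 2 VSG and 2 sham mice. A replicate number stands for the same mouse in every segment (VSG replicates 1 to 4 in the upper segments, 4 and 5 in the ileum), and each library is 1 segment of 1 mouse.

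Paneth cells sit among the stem cells at the crypt base and secrete granules of host defence proteins. Lyz1 encodes lysozyme, which cuts bacterial cell walls, and the alpha-defensins encoded by Defa17 and Defa24 are small cysteine-rich peptides that break bacterial membranes. Mmp7 is the protease that cuts alpha-defensin precursors to their active form, Ang4 is an angiogenin with bactericidal activity, and Itln1 is a lectin that binds microbial sugars. Reg3b and Reg3g are secreted lectins made by enterocytes as well as Paneth cells, and are known to be induced by bacteria through MyD88 signalling and by interleukin-22 through STAT3. Reg3a is their neighbour in the same gene cluster, and Nupr1 is a stress-induced chromatin protein. The GFP of Lgr5-EGFP mice is known to persist for a time in the daughters of stem cells. In these bulk libraries, fewer cells of a type and less RNA per cell cannot be told apart.

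Values are DESeq2-normalized counts, and each segment has its own normalization. Where levels are set side by side they are given as CPM, the normalized count scaled to a library total of 1000000. Implied depth, from what 1 read is worth in each library, was 33.7 to 63.6 M reads for duodenal libraries, 22.2 to 57.8 M for jejunal and 10.9 to 36.4 M for ileal ones (M, 1000000). Lgr5 was above 0 in 14 of the 16 libraries and listed at 0 in the jejunal and ileal libraries of sham replicate 1. The jejunal library of that mouse stood apart, with 388 CPM in 11 stem cell genes against 1525 to 2062 in the other jejunal libraries, and with 51396 CPM in 11 enterocyte genes against 16873 to 30808. Its ileal library had the lowest stem cell sum of the ileum, 275 CPM against 443 to 950. Members' differences that rest on this mouse are given with and without it, and counts over the gene lists include it. Markers of sorted-out cells were low, at 5.47 to 61.5 CPM for 14 immune genes and 0.880 to 55.8 for 10 stromal and endothelial genes. The sums of 15 pancreatic acinar genes were between 0 and 301 CPM.

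The 3 Reg3 genes lie in 1 cluster on chromosome 6 of GRCm38, Reg3b at 78370657 to 78373466 and Reg3a at 78380709 to 78383827 on the plus strand and Reg3g at 78466269 to 78468872 on the minus strand. Their promoters are printed because Reg3b and Reg3g varied together from library to library while Reg3a did not. Each sequence is the 250 bases before the RefSeq start (GRCm38.p6), 5′ to 3′ on the gene's strand, and the RefSeq start of Reg3b lies inside the longer gene model given above. Capitals mark the 20 bases shared by Reg3b and Reg3g that end at the start, and the 11 bases shared by Reg3a and Reg3g. 
Reg3a, chr6:78380459-78380708, plus: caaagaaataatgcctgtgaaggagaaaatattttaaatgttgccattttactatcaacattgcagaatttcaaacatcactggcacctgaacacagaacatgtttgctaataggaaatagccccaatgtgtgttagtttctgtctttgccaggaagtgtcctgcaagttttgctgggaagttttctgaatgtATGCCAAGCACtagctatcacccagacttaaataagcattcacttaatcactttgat
Reg3b, chr6:78370635-78370884, plus: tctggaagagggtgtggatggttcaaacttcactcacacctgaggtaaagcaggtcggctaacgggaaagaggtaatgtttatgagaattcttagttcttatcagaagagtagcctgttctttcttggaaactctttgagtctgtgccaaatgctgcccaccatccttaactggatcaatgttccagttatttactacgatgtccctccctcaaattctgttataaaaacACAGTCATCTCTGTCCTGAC
Reg3g, chr6:78468875-78469124, minus: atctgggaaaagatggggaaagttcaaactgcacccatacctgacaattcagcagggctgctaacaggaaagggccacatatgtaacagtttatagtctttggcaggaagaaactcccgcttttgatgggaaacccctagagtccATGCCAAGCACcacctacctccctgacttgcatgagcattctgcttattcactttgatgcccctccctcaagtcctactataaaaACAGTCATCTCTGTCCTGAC
Over the 250 bases, Reg3b and Reg3g were 70.8% identical, Reg3a and Reg3g 61.6%, and Reg3a and Reg3b 59.2%. The letters TATAAA were found 29 bases before the start of Reg3b and 27 before that of Reg3g but not in the Reg3a window, and 12.37% of 32851 promoters hold them on either strand. The windows of Reg3a and Reg3g are offset, since the 11 shared bases begin 57 bases before the start of Reg3a and 105 before that of Reg3g. The Reg3a window thus ends before the stretch that holds TATAAA in Reg3g, and its lower percents of identity are over windows offset in this way. CTTTGAT, a core of the TCF/LEF motif, was in the Reg3a and Reg3g windows (3.205% of all promoters), 7 and 54 bases before the start. TTCNNNGAA, the core that STAT factors bind, was in the Reg3b, Ang4 and Nupr1 windows (7.02% of all promoters). These are matches of letters in a window, with no measure of binding behind them. Promoters were matched for 8 of the 10 genes, and those of Defa17 and Defa24 were not used here. The open reading frames of the 3 Reg3 genes were 75.4% to 77.7% identical, and no 85-base window, the length of a read, was shared between any of them and another gene.

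Defa17 and Defa24 lie on chromosome 8, at 21655780 to 21656735 and 21734494 to 21735471, both on the plus strand, within the alpha-defensin cluster. The last 60 bases of their open reading frames are printed with those of Defa3, since they set which counts can be told apart, and capitals mark the bases at which Defa24 differs from Defa17.
Defa17: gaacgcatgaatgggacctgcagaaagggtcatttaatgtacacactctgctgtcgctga
Defa3: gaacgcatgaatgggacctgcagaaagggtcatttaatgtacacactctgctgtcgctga
Defa24: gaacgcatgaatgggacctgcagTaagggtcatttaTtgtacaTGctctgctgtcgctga
The frame of Defa17 was identical to that of Defa3 over all 282 bases, and 91.05% of the 85-base windows of the Defa17 transcript also occur in Defa3. The Defa17 value is therefore uncertain as a value of that gene alone. Defa24 was 95.74% identical to Defa17 but shared no 85-base window with another gene, and for Lyz1 4.58% of windows were shared with Lyz2. The remaining members lie elsewhere, Lyz1 on chromosome 10 (117287797 to 117292868, minus strand), Ang4 on chromosome 14 (51763878 to 51773590, minus strand), Mmp7 on chromosome 9 (7692090 to 7699585, plus strand), Itln1 on chromosome 1 (171518122 to 171535294, minus strand) and Nupr1 on chromosome 7 (126623249 to 126630861, minus strand).

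Paneth cell transcripts were abundant in the sorted cells of the upper intestine. To compare genes, CPM was divided by the kilobases of exon, the union over all transcripts of a gene. This length was 2114 bases for Reg3g, 1142 for Reg3b and 419 for Defa24. Exons that these cells do not use would lower a gene's value, and the order was not checked with other lengths. Defa24 led in the duodenum (median 3198 CPM per kilobase, range 2410 to 5030 over 6 libraries) and the jejunum (median 3919, range 532 to 6199). Reg3b led in the ileum at a median of 6334 (range 3025 to 15061 over 4 libraries), with Reg3g second at 1060 (range 244 to 3425). Nupr1 was last in every segment, with medians of 2.02, 4.01 and 0.877 CPM per kilobase. The ranges of neighbours in this order overlapped, such as those of Reg3b (220 to 5283) and Lyz1 (767 to 1673) in the duodenum, except that Nupr1 lay below Reg3a in the duodenum and below Mmp7 in the ileum with no overlap.

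**Figure D1:**
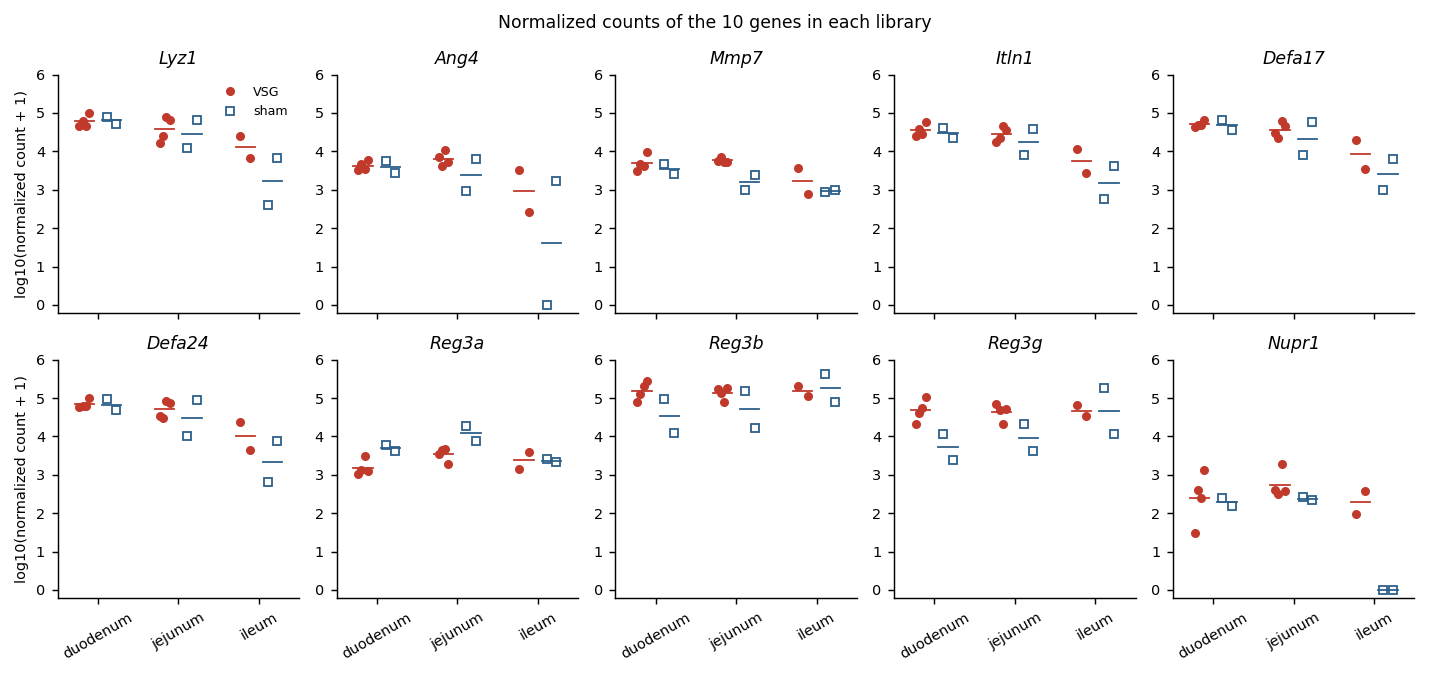
Normalized count of each gene in each library, as log10(normalized count + 1), by segment, with filled circles for VSG, open squares for sham libraries and a line at each group's mean. Within a group, libraries run from left to right by replicate number. Both Nupr1 sham libraries and 1 Ang4 sham library of the ileum lie at 0.

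The 6 Paneth granule genes had their lowest medians in the ileum, where Reg3b and Reg3g had their highest. The sorted cells differed between segments in stem cell genes as well. The sum of 11 such genes was 275 to 950 CPM in the ileal libraries and 1910 to 3817 in the duodenal ones. The part of such differences in the levels below was not tested. Lyz1 had a median of 1178 CPM over the duodenal libraries (969 to 2113), 1311 over the jejunal (251 to 2341) and 304 over the ileal ones (16.1 to 1152). In the 3 mice with an ileal library and an upper one, Lyz1 was lower in the ileum than in the duodenum and the jejunum of the same mouse. The same held in 3 of 3 mice for Itln1, Defa17 and Defa24, whose duodenal medians were 4.61, 4.66 and 5.09 times the ileal ones. Mmp7 was lower in the ileum than in the duodenum in 3 of 3 mice but lower than in the jejunum in 1 of 3, with medians of 89.3, 158 and 39.0 CPM from duodenum to ileum. Ang4 peaked in the jejunum by its medians (86.6, 172 and 43.0 CPM) and was higher there than in the duodenum in 5 of 6 mice, but it was higher in the ileum than in the duodenum in 2 of 3 mice.

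The medians of Reg3b increased along the gut, from 2249 CPM in the duodenum (251 to 6033) to 3606 in the jejunum (497 to 5452) and 7233 in the ileum (3455 to 17200). Reg3g had medians of 657, 1015 and 2240 CPM. Both were higher in the ileum than in either upper segment in 3 of 3 mice. Reg3a differed from both, since it was higher in the jejunum than in the duodenum in 6 of 6 mice (medians 46.0 and 132 CPM) and had a median of 98.9 in the ileum. The ranges of the segments overlapped for all 10 genes in all 3 pairs of segments. By the same measure, 0.557% of genes were fully above and 0.747% fully below between duodenum and jejunum, 4.13% above and 11.3% below from duodenum to ileum, and 0.882% above and 1.74% below from jejunum to ileum. The order of the medians of 2 segments depended in places on which libraries were taken. Over the sham libraries alone, the change from duodenum to jejunum was -0.58 for Mmp7, -0.28 for Lyz1 and -0.11 for Defa17 on the log2 scale (0.82, 0.15 and 0.12 over all libraries), and that of Reg3a from duodenum to ileum was -0.06 (1.09 over all). Over the VSG libraries alone, the change from duodenum to ileum was 0.08 for Mmp7 and 0.55 for Nupr1 (-1.17 and -0.92 over all), and that of Reg3a from jejunum to ileum was 0.07 (-0.41 over all). With the deposited normalized count in place of CPM, Lyz1, Itln1, Defa17 and Defa24 were lower in the jejunum than in the duodenum (log2 -0.33, -0.23, -0.36 and -0.19). These levels were not tested, since the tables were normalized separately.

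**Figure D2:**
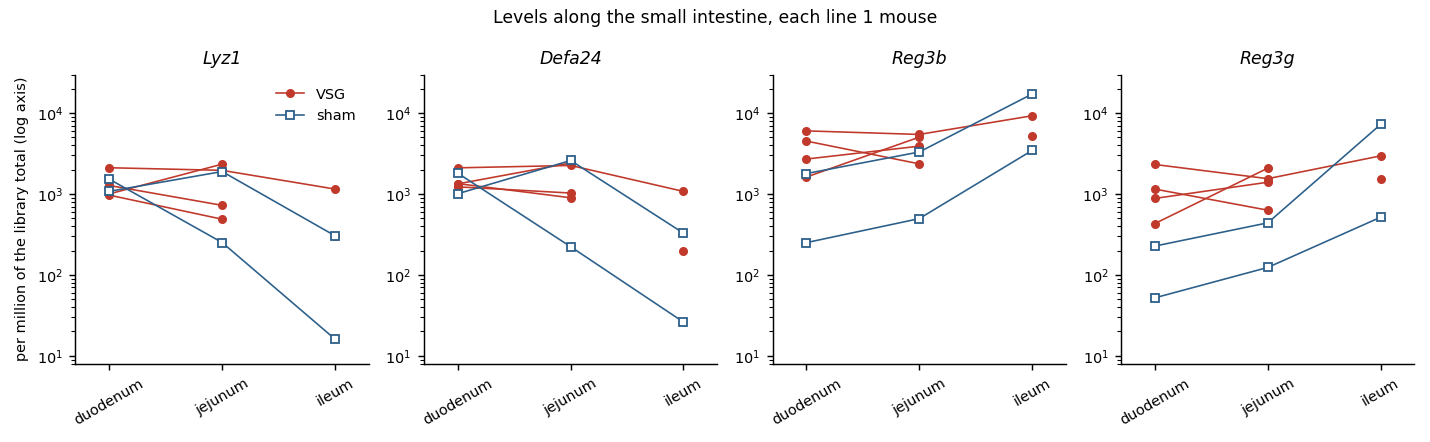
Level in CPM (log axis, labelled as parts of 1000000) of Lyz1, Defa24, Reg3b and Reg3g in the duodenum, jejunum and ileum, with 1 line per mouse, filled circles for VSG and open squares for sham. VSG replicate 5 has an ileal library only and is a single point. In the 3 mice with all 3 segments, Lyz1 and Defa24 are lowest in the ileum, and Reg3b and Reg3g are highest there.

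Ratios of 2 genes within a library do not depend on the scale of the table, and 10 of them were examined after the values had been seen. Ang4 relative to Lyz1 was higher in the jejunum than in the duodenum in 6 of 6 mice, by 1.01 ± 0.86 on the log2 scale (SD; exact sign-flip test, two-sided, p = 0.03125, the smallest that 6 mice allow, 0.156 adjusted over the 10 ratios). Reg3a relative to Reg3b was higher in the jejunum in 6 of 6 mice, by 1.14 ± 0.63 on the log2 scale (exact sign-flip test, two-sided, p = 0.03125, adjusted 0.156). Neither passed an adjusted p of 0.05. Of the ratios to Lyz1, those of Defa24, Defa17 and Itln1 spread least, 3.21-, 4.61- and 3.38-fold over all 16 libraries, whereas that of Reg3b to Lyz1 spread from 0.232 to 1067.

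Among alpha-defensin transcripts with a Defa symbol, the mix differed between segments. Defa20 was 0.310% to 2.58% of Defa24 in the 6 duodenal libraries. It was 12.4% to 41.1% in the jejunum and 43.3% to 77.3% in the ileum, apart from sham replicate 1 at 0.670% and 0. Defa2 had median shares of 1.55%, 16.5% and 81.0% of Defa24 from duodenum to ileum, with 55.8% in the jejunal library of VSG replicate 1, and in sham replicate 1 it was 1.36%, 0 and 24.8%. Both were thus far below Defa24 in every duodenal library, and in each mouse with an ileal and a duodenal library the share was higher in the ileum, apart from Defa20 in sham replicate 1. Defa-rs7, a defensin-related gene, was 40.0% to 57.8% of Defa24 in duodenal, 11.8% to 59.8% in jejunal and 0 to 38.8% in ileal libraries. Defa17 remained at 58.7% to 89.1% of Defa24 in 15 of the 16 libraries and was 150% of it in the ileal library of sham replicate 1. These shares were chosen after the values were seen and have no test, and reads of near-identical defensin genes may have been divided between them. Genes of the cluster region under other symbols were not included, such as Gm15284, with 31354 to 57006 normalized counts in the duodenal VSG libraries.

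**Figure D3:**
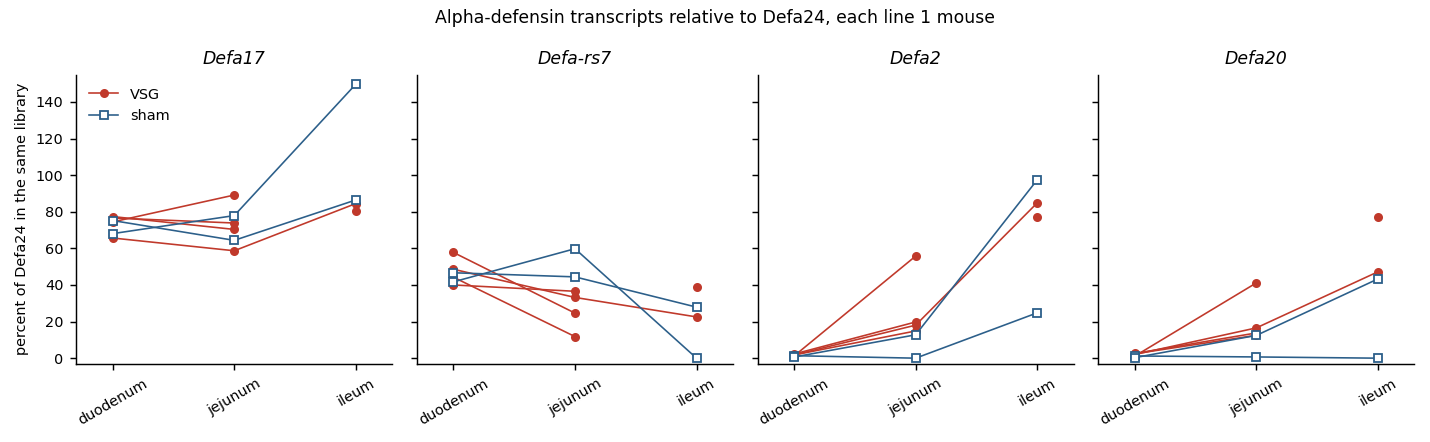
Normalized counts of Defa17, Defa-rs7, Defa2 and Defa20 as a percent of Defa24 in the same library (linear axis), by segment, with 1 line per mouse, filled circles for VSG and open squares for sham. Defa2 and Defa20 reach at most 2.26% and 2.58% in the duodenal libraries, and 97.4% and 77.3% in the ileal libraries.

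To ask whether VSG alters these genes, VSG and sham libraries were compared within each segment with limma on log2(normalized count + 1), over all genes with a mean above 10. Calls needed a log2 fold change beyond 0.5 in either direction and a mean above 50, together with p below 0.05 and adjusted p below 0.2. No member was called in any segment, where 0.0237% of duodenal, 0.0126% of jejunal and 0% of ileal genes were called. The study reported far more altered genes in every segment with DESeq2 at these thresholds, and limma here is not that test. The lack of a call is therefore no sign that a gene did not change. At an unadjusted p under 0.05 there were 3 members in the duodenum (Reg3a, Reg3b and Reg3g), 3 in the jejunum (Reg3a, Reg3g and Mmp7) and 0 in the ileum, against 6.27%, 6.04% and 3.28% of all genes. The VSG libraries were all above both sham libraries for 1 duodenal, 3 jejunal and 1 ileal member, against 6.44%, 6.59% and 17% of all genes. They were all below for 1 member in the duodenum and 1 in the jejunum, against 8.01% and 6.21% of genes (11.6% in the ileum, with no member). The median log2 fold change of the members was 0.17, 0.99 and 1.82 from duodenum to ileum, where that of all genes was 0.0086, 0.11 and 0.24. Without sham replicate 1 it was 0.65, -0.22 and 0.63, and without sham replicate 2 it was -0.27, 1.73 and 3.22. Leaving out Ang4 and Nupr1, which were listed at 0 in ileal sham libraries, the ileal median over all libraries was 1.31. Of all genes tested, 50.7%, 55.0% and 57.0% had positive log2 fold changes from duodenum to ileum. These shares stand beside every count of higher genes in the lists below.

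**Figure D4:**
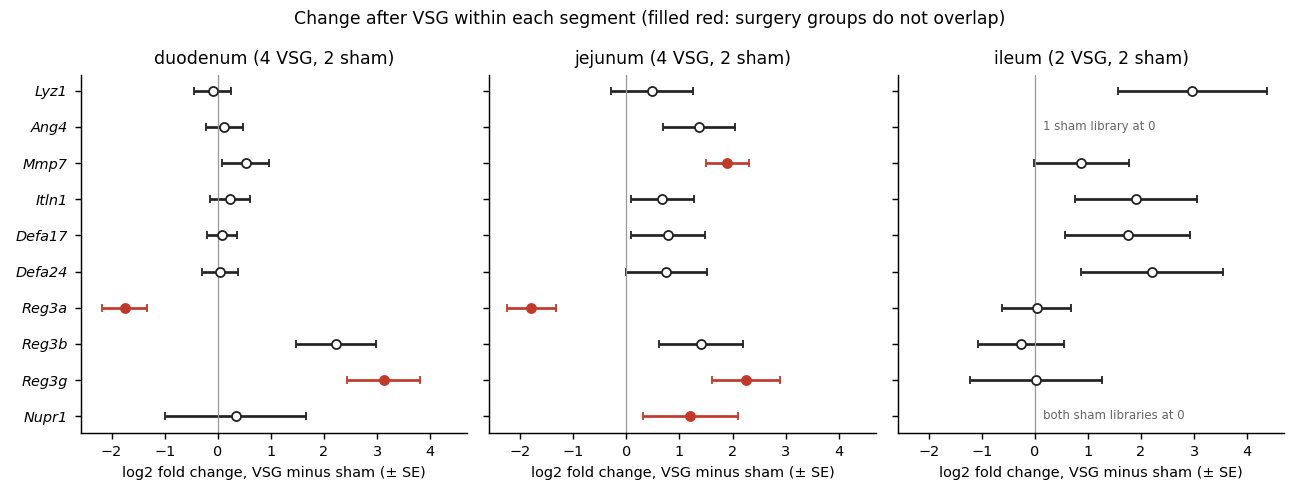
Log2 fold change of each gene, VSG minus sham, with its standard error from limma, in the duodenum and jejunum (4 VSG and 2 sham libraries) and the ileum (2 and 2). Filled red points mark genes whose VSG and sham libraries do not overlap, and no point is drawn where a sham library was listed at 0. Reg3a lies below 0 and Reg3g above 0 in both upper segments, and both lie near 0 in the ileum.

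Among the members, those at an unadjusted p under 0.05 in the duodenum were the Reg3 genes, and they did not go the same way. Reg3g had 20503, 41692, 53930 and 108677 normalized counts after VSG (replicates 1 to 4) and 11767 and 2500 after sham surgery. All VSG libraries were above both sham libraries, by 3.12 ± 0.69 (log2 fold change ± SE, adjusted p = 0.390 in limma). Reg3b had 76974, 127835, 211564 and 282903 after VSG and 92688 and 12032 after sham surgery. VSG replicate 1 lay below sham replicate 1, and the difference was 2.22 ± 0.75 on the log2 scale (adjusted p = 0.611). Reg3a had 1056, 1305, 3013 and 1219 after VSG and 6124 and 4190 after sham surgery. Here all VSG libraries were below both sham libraries, by -1.75 ± 0.43 (adjusted p = 0.451). The exact permutation p was 0.0667 for Reg3g and for Reg3a, the smallest that 4 against 2 allow, and 0.133 for Reg3b. The size of the Reg3b and Reg3g differences rested on sham replicate 2, since without it they were 0.75 and 2.01.

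The jejunum gave the same arrangement of the 3 Reg3 genes. Reg3g had 69905, 48243, 21667 and 52399 normalized counts after VSG and 20746 and 4170 after sham surgery, with no overlap (2.25 ± 0.64, adjusted p = 0.760). VSG replicate 3 was only just above sham replicate 1. Reg3b had 168958, 134614, 80990 and 184556 after VSG and 155797 and 16736 after sham surgery, which overlap (1.41 ± 0.79, adjusted p = 0.760). Reg3a had 3535, 4443, 4617 and 1933 after VSG and 18359 and 7739 after sham surgery. It was again lower in every VSG library, by -1.79 ± 0.46 (adjusted p = 0.760), with an exact permutation p of 0.0667. Without sham replicate 1, the differences were 3.41 for Reg3g, 3.02 for Reg3b and -1.17 for Reg3a, and without sham replicate 2 they were 1.09, -0.20 and -2.42. Reg3a was called in the latter fit (adjusted p = 0.0958), in which the jejunal library that stood apart was the only sham library. The duodenal and jejunal libraries come from the same 6 mice, so that the segments are not independent of each other.

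In the ileum, the Reg3 genes showed no such arrangement. Reg3b had 203932 and 114209 normalized counts after VSG and 430093 and 77706 after sham surgery. Reg3g had 65151 and 33376 after VSG and 181024 and 11623 after sham surgery, and Reg3a had 1442 and 3962 against 2617 and 2096. In each case the sham libraries lay on both sides of, or between, the VSG libraries, and the log2 fold changes were -0.26 ± 0.81, 0.02 ± 1.24 and 0.03 ± 0.65, or 0.97, 2.00 and 0.19 without sham replicate 1 and -1.49, -1.96 and -0.13 without sham replicate 2. With 2 libraries against 2, no permutation p can be below 0.333.

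Ratios within a library are made from the values given above and are no separate line of evidence. Relative to Reg3b, Reg3a was lower in every VSG library of both upper segments than in the sham libraries. In the duodenum it was 0.00431 to 0.0142 of Reg3b after VSG and 0.0661 and 0.348 after sham surgery. In the jejunum the ratio was 0.0105 to 0.0570 after VSG and 0.118 and 0.462 after sham surgery, again with no overlap. The ileal ratios overlapped, at 0.00707 and 0.0347 after VSG and 0.00608 and 0.0270 after sham surgery. Reg3g relative to Reg3b was higher in every VSG library, at 0.255 to 0.384 against 0.127 and 0.208 in the duodenum and 0.268 to 0.414 against 0.133 and 0.249 in the jejunum. For each of these 4 comparisons the exact permutation p was 0.0667 (two-sided, the smallest possible), or 0.193 adjusted over the 29 ratio comparisons, which were added after the values had been seen. The mean log2 ratio of Reg3a to Reg3b differed by -3.98 (duodenum) and -3.20 (jejunum), and stayed between -5.18 and -2.22 when each library was left out in turn.

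**Figure D5:**
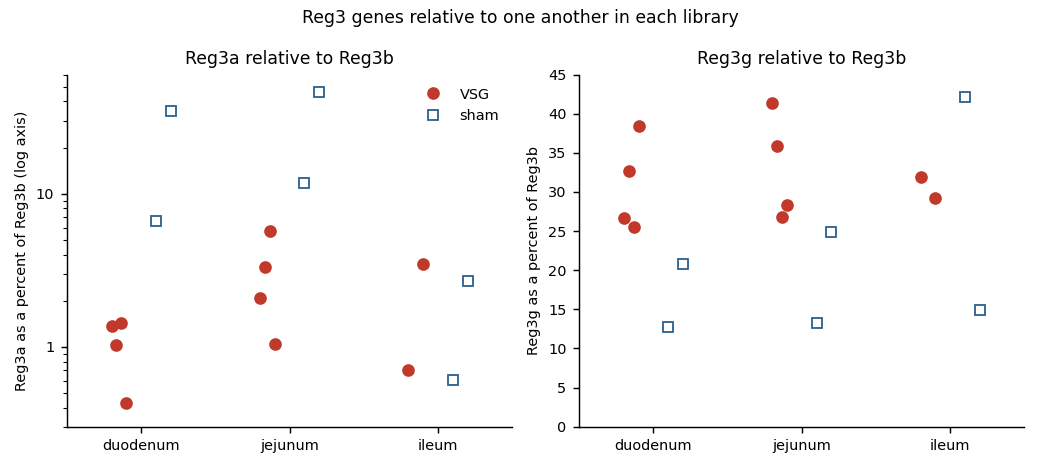
Reg3a (left, log axis) and Reg3g (right, linear axis) as a percent of Reg3b in each library, by segment, with filled circles for VSG and open squares for sham. In the duodenum and jejunum every VSG library lies below both sham libraries for Reg3a and above both for Reg3g, and in the ileum the groups overlap.

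Enterocyte markers moved with the surgery groups too, and their sums did not overlap in the duodenum. The summed level of 11 enterocyte genes, all detected in every library, was 7553 to 16132 CPM after VSG and 17775 and 24344 after sham surgery in the duodenum, and 16873 to 30808 against 26949 and 51396 in the jejunum. All 11 had negative log2 fold changes in both segments, with 6 and 3 at an unadjusted p under 0.05 and none called. Alpi, the intestinal alkaline phosphatase, had -1.36 ± 0.28 in the duodenum and -1.67 ± 0.38 in the jejunum. For tuft cell markers, 8 of 8 had positive values in both segments, 6 and 4 of them at an unadjusted p under 0.05, and their sum was 359 to 772 CPM after VSG and 109 and 250 after sham surgery in the duodenum. Of 10 goblet cell genes, 9 were higher in the duodenum and 10 in the jejunum, with 1 and 6 at an unadjusted p under 0.05, and their sums overlapped between surgeries in both segments. The low immune sums of the duodenum did not overlap, at 9.87 to 61.5 CPM after VSG and 5.81 and 6.45 after sham surgery, with 2 to 5 of the 14 genes above 0 in each library. The low stromal and endothelial sums of the duodenum were 0.880 to 4.50 CPM after VSG and 5.92 and 55.8 after sham surgery. The part of these cell types in the Reg3 values was not tested.

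The Paneth granule genes showed little difference between surgeries in the duodenum. Lyz1 had 45978, 60226, 47036 and 99105 normalized counts after VSG and 78992 and 51804 after sham surgery. The groups overlapped, with a log2 fold change of -0.09 ± 0.35 (adjusted p = 0.967). Defa24 had 58227, 63490, 62606 and 98832 after VSG and 93471 and 48435 after sham surgery (0.04 ± 0.33). Defa17, Ang4 and Itln1 had 0.08 ± 0.29, 0.12 ± 0.35 and 0.23 ± 0.38, and Mmp7 had the largest value of the 6, 0.53 ± 0.44, with none at p under 0.05. The summed level of the 6 genes was 3765 to 7182 CPM after VSG and 3424 and 5559 after sham surgery. Relative to Lyz1 in the same library, Mmp7 was higher in every VSG library (0.0651 to 0.0979 against 0.0494 and 0.0579), as was Itln1 (0.542 to 0.644 against 0.430 and 0.526), each with an exact permutation p of 0.0667 (0.193 adjusted over the 29 ratio comparisons).

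In the jejunum, Mmp7 was the Paneth granule gene whose groups did not overlap. It had 5734, 6991, 5390 and 5368 normalized counts after VSG and 984 and 2472 after sham surgery. The difference was 1.90 ± 0.40 on the log2 scale (p = 0.000771, adjusted p = 0.668; exact permutation p = 0.0667), and 1.24 without sham replicate 1. The other 5 genes were all lowest in sham replicate 1, while sham replicate 2 was among the VSG libraries or above them. Lyz1 had 16348, 24988, 80325 and 66416 after VSG and 11846 and 63943 after sham surgery, and Ang4 had 7113, 4031, 11064 and 5159 against 930 and 6465. Their log2 fold changes were 0.48 ± 0.77 and 1.37 ± 0.68, with 0.67, 0.78 and 0.75 for Itln1, Defa17 and Defa24. Without sham replicate 1 all 5 turned to negative values, from -0.02 for Ang4 to -0.78 for Defa24. Without sham replicate 2 the values were 1.70 to 2.77, and Ang4, Mmp7, Defa17 and Defa24 were called.

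The ileal values of these genes spread widely within each surgery group. Lyz1 had 25341 and 6648 normalized counts after VSG and 403 and 6867 after sham surgery. Defa24 had 23711 and 4356 against 653 and 7387, and Itln1 had 11672 and 2730 against 559 and 4069. In these 3 genes the sham replicate 2 value lay between the VSG libraries and sham replicate 1 was the lowest. The log2 fold changes were 2.96 ± 1.41, 2.21 ± 1.33 and 1.90 ± 1.15, none at p under 0.05, and 0.92, 0.46 and 0.47 without sham replicate 1. Mmp7 had 3698 and 767 after VSG and 870 and 971 after sham surgery, which gave 0.87 ± 0.90. Ang4 had 3274 and 267 after VSG and 1659 in sham replicate 2, and was listed at 0 in sham replicate 1.

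Nupr1 was low throughout, with an implied 20.6 to 1329 reads in the 14 libraries in which it was above 0. In the jejunum it had 389, 321, 1916 and 366 normalized counts after VSG and 258 and 216 after sham surgery. All VSG libraries were higher, but VSG replicate 3 far more than the rest, and the difference was 1.20 ± 0.90 on the log2 scale (p = 0.210, adjusted p = 0.765; exact permutation p = 0.267). In the duodenum it had 29.0, 410, 249 and 1294 after VSG and 250 and 156 after sham surgery, which overlap. In the ileum it had 96.9 and 373 after VSG and was listed at 0 in both sham libraries, so no fold is given. Of 18 further stress response genes, which include Atf4, a transcription factor of the integrated stress response, and the chaperone gene Hspa5, 16, 16 and 15 could be tested from duodenum to ileum. The number with a positive log2 fold change was 11, 9 and 15, with 1, 2 and 1 at an unadjusted p under 0.05 and none called. In CPM, their sum did not overlap between surgeries in the jejunum, at 1865 to 2116 after VSG and 1550 and 1709 after sham surgery. The lowest of these was sham replicate 1, whose library total was 47.1 M normalized counts, against 33.7 M in sham replicate 2. On normalized counts its sum was not below the VSG libraries, and the groups overlapped. The ileal sums were also apart in CPM, at 2162 and 2325 against 1334 and 1394. In the ileum 8 of the 15 genes were higher in both VSG libraries than in both sham libraries, where 17% of all genes were.

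The difference between jejunum and duodenum within each mouse was compared between surgeries, and no member was called, as for 0% of the 14718 genes tested. Reg3a was higher in the jejunum than in the duodenum by 1.20 after VSG and by 1.23 after sham surgery on the log2 scale, so that the surgeries differed by -0.04 ± 0.49 (SE). Mmp7 had the largest difference, 1.38 ± 0.68 (p = 0.0764, adjusted p = 0.948, exact permutation p = 0.2), with 0.25 after VSG and -1.13 after sham surgery. The sham mean of Mmp7 rested on sham replicate 1, with 4571 normalized counts in the duodenum and 984 in the jejunum. Sham replicate 2 had 2557 and 2472. Reg3g and Reg3b differed by -0.87 ± 0.78 and -0.81 ± 0.66. A difference in the effect of VSG between the segments was therefore not detected for any member over all libraries. Calls without sham replicate 2 are not read as such a difference. The only sham mouse left is then sham replicate 1, whose jejunal library stood apart.

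Other genes of Paneth cell formation and secretion were read beside the members. Of 22 such genes, 14 had positive log2 fold changes in duodenal, 19 in jejunal and 16 of the 21 tested in ileal libraries, with 3, 8 and 1 of them at an unadjusted p under 0.05 and none called. Their medians were 0.37, 1.38 and 0.80, and their sums did not overlap in any segment, such as 1349 to 1505 CPM after VSG against 1033 and 1065 in the duodenum. The jejunal sums were 1268 to 1964 CPM after VSG, 581 in sham replicate 1 and 1186 in sham replicate 2. Cd24a, a surface protein of Paneth and other secretory cells, had 20325 to 27056 normalized counts after VSG and 12858 and 13750 after sham surgery in the duodenum (0.80 ± 0.21, adjusted p = 0.485). Its jejunal groups overlapped, at 10247 to 23849 against 2430 and 10519 (1.70 ± 0.56). Dll4, a Notch ligand on secretory cells, did not overlap in either upper segment (0.94 ± 0.35 and 1.65 ± 0.69), nor did Xbp1, a regulator of the secretory apparatus (0.24 ± 0.19 and 0.33 ± 0.28). Fzd5, a Wnt receptor required for Paneth cell maturation, had -0.06 ± 0.26 in the duodenum and -0.35 ± 0.33 in the jejunum. In the jejunum it was lower in every VSG library, at 5526 to 9187 normalized counts against 9413 and 11016. Of 28 other alpha-defensins, taken by their Defa symbols, 14, 12 and 12 could be tested. Of these, 9, 7 and 12 were higher, with 2, 3 and 0 at an unadjusted p under 0.05. Genes of the same region under other symbols, such as Gm15284, were not in this list.

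Of 19 genes on the routes that induce Reg3b and Reg3g, 17, 18 and 16 were tested, and 9, 9 and 10 were higher after VSG and 8, 9 and 6 lower. Their ileal sums did not overlap, at 905 and 956 CPM after VSG and 620 and 624 after sham surgery. Stat3 had 0.14 ± 0.43 in the duodenum and 0.48 ± 0.42 in the jejunum. Il10rb, a subunit of the interleukin-22 receptor, had 1785 to 3217 normalized counts after VSG and 4331 and 4364 after sham surgery in the duodenum (-0.76 ± 0.29, adjusted p = 0.681). Its jejunal groups overlapped, at 2200 to 4194 against 2792 and 6317 (-0.54 ± 0.43), and its ileal value was 0.21 ± 0.51. Among 23 other Reg and antimicrobial genes, 16, 16 and 13 were tested and 13, 14 and 7 were higher. Duox2, the epithelial oxidase that makes hydrogen peroxide, had 532 to 1439 against 229 and 494 in the duodenum and 2070 to 6926 against 696 and 1431 in the jejunum. It was higher in every VSG library of both (1.41 ± 0.55 and 1.86 ± 0.54). In the ileum it was lower in both VSG libraries, at 1767 and 3094 against 4370 and 8338 (-1.37 ± 0.55, adjusted p = 0.736). Lypd8, which keeps bacteria from the mucosa, had 0.53 ± 0.34, 1.30 ± 0.46 and -0.04 ± 0.43 from duodenum to ileum.

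Over the 12 duodenal and jejunal libraries, with log2 values centred within each segment, the closest pairs were among the granule genes and between Reg3b and Reg3g. Pearson's r was 0.99 between Defa17 and Defa24, 0.94 between Lyz1 and Itln1 and 0.95 between Reg3b and Reg3g. Between Lyz1 and Reg3b r was -0.18, and between Reg3a and Reg3g it was -0.58. Mmp7 was closest to the granule genes Ang4 (r = 0.77) and Itln1 (0.70). Its r was 0.61 with Reg3g, 0.61 with Defa17, 0.60 with Defa24 and 0.47 with Lyz1. The r of Nupr1 with the other members was between -0.10 and 0.56. Of 12337 genes with a mean above 50 in both segments, the 5 non-members most like Lyz1 were Gm14850, Gm15284, Gm14851, AY761184 and Defa-rs7 (r = 0.94 to 0.96), which all lie on chromosome 8 between 21095074 and 21703645, around the alpha-defensins. The 5 most like Reg3b were H2-DMa, Psmb8, Cd74, Ciita and H2-Eb1 (r = 0.93 to 0.95). Ciita is the master activator of MHC class II genes, Cd74, H2-DMa and H2-Eb1 belong to the class II pathway, and Psmb8 is a subunit of the immunoproteasome. H2-DMa had 1372 to 3952 normalized counts after VSG and 331 and 1344 after sham surgery in the duodenum (1.89 ± 0.58, adjusted p = 0.555). In the jejunum its groups overlapped, at 1484 to 2598 against 490 and 1970 (0.89 ± 0.56). The other 4 genes overlapped between surgeries in both segments. The 12 points come from 6 mice, 2 libraries each, with the jejunal library that stood apart among them, and these values of r are a description.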

How the data were processed

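GFP+ cells were sorted from 16 segments of 7 mice. Per the methods and the submitters' processing notes, polyA RNA was sequenced as 85 nt single-end directional reads, mapped to mm10 with STAR 2.5.3a and quantified with Salmon 0.6.0. Libraries with low mapping percentages were left out by the authors, with a lower cut-off for ileal libraries than for duodenal and jejunal ones. The deposited values, a signal that is not whole reads, are DESeq2-normalized counts, scaled separately per segment. Because counts as such were not used here, limma 3.58.1 (R 4.3.3) with a variance trend was fitted to log2(normalized count + 1) over all genes with a mean above 10, with Benjamini-Hochberg adjustment, and fold changes of low genes are understated on this scale. Adjusted p-values in the text come from this fit. The thresholds of a call follow the study's methods, with the mean above 50 as its expression limit. Fits were tested on simulated data. Exact permutation tests were two-sided, over 15 splits of 4 against 2 or 6 of 2 against 2. Levels between segments are CPM, the normalized count scaled to a library total of 1000000. Depth was read from the step between low values.

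The members and gene lists were chosen with earlier results of these data known. Genes named beside the members were those of each list with the highest mean or with surgery groups that did not overlap in both upper segments, a selection of them being printed, and the genes most correlated with Lyz1 and Reg3b. Replicate numbers mark mice, and a number shared by a VSG and a sham library names 2 animals. Alternatives were the pseudocount, filter, scaling, trend, threshold, block and leaving out each library. Gene positions are GENCODE M21 (GRCm38), promoters are from RefSeq, and reading frames were taken from the GENCODE transcripts with Python 3.11.15.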

Additional observations from a re-analysis of the deposited data

Results flagged for a closer look

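In 3 of the 20 groups of 4 VSG libraries examined, 1 library lay far from the other 3 since the ratio of its gap to the group's whole range was above Dixon's 95% critical value. Chance gives about 1 in 20. Defa24 in the duodenum was highest in VSG replicate 4 (ratio 0.87), at 98832 normalized counts against 58227 to 63490 in the others. Reg3a in the duodenum was highest in VSG replicate 3 (ratio 0.873), at 3013 against 1056 to 1305, which is still below both sham libraries. Nupr1 in the jejunum was highest in VSG replicate 3 (ratio 0.957), at 1916 against 321 to 389.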

How the results depend on the processing

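With 2 sham libraries a segment, single libraries decided the counts, and where leaving out a library left 1 in a group, that library was assumed to vary like the others. In the duodenum, 4 genes were called in all, against 0 with a pseudocount of 0.5, no filter, a mean above 50, equal totals, an adjusted p under 0.05 or a replicate block, 10 with a pseudocount of 10 and 43 without the trend, and 0 to 259 when each library was left out. In the jejunum, 2 were called, against 61 without the trend, 1 at an adjusted p under 0.05 and 1 to 2710 when each library was left out. In the ileum, 0 were called, against 3 with a pseudocount of 10, 463 without the trend and up to 631 when each library was left out. Members called stayed at 0 in the duodenum, reached 5 in the jejunum (without sham replicate 2) and in the ileum were 1 (Nupr1) without the trend and 0 to 1 when a library was left out (Nupr1 without VSG replicate 4, Mmp7 without VSG replicate 5). For the jejunal minus duodenal difference they were 0 to 4. Members at an unadjusted p under 0.05 were 1 to 3 in the duodenum, 3 to 6 in the jejunum and 0 to 2 in the ileum when a library was left out, 4 in the jejunum with quantile normalization or equal totals, 1 in the duodenum under the block, and 1 in the ileum with a pseudocount of 10, a mean above 50 or no trend. Members whose groups do not overlap were 2 to 8, 4 to 9 and 3 to 8 when a library was left out.

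Of the members' log2 fold changes under the alternatives, 16 of 110 duodenal, 6 of 100 jejunal and 9 of 80 ileal values turned sign. Leaving out each library gave, in the duodenum, -0.398 to 0.21 for Lyz1, -0.381 to 0.623 for Ang4, -0.223 to 0.675 for Itln1, -0.326 to 0.478 for Defa17, -0.435 to 0.514 for Defa24 and -0.449 to 1.36 for Nupr1. In the jejunum it gave -0.735 to 1.7 for Lyz1, -0.0234 to 2.77 for Ang4, -0.412 to 1.76 for Itln1, -0.614 to 2.17 for Defa17, -0.779 to 2.28 for Defa24 and -0.198 to 3.02 for Reg3b. In the ileum it gave -0.824 to 9.87 for Ang4, -0.26 to 2.01 for Mmp7, -0.699 to 0.758 for Reg3a, -1.49 to 0.974 for Reg3b and -1.96 to 2 for Reg3g. Quantile normalization turned Lyz1 in the duodenum to 0.0487 and Reg3b in the ileum to 0.306. The replicate block turned Defa17 to -0.0609, Defa24 to -0.146 and Nupr1 to -0.84 in the duodenum. Same-numbered mice did not deviate together (correlations of -0.0489 and -0.0263). Reg3a and Reg3g kept their signs in both upper segments under every alternative run. The cause of these shifts was not tested beyond the smaller number of libraries.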
